A study of Mus musculus with 12 samples.

Results

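The genes described here are the enzymes that write and erase DNA methylation: the writers Dnmt1, Dnmt3a and Dnmt3b, which encode DNA methyltransferases, and the erasers Tet1, Tet2 and Tet3, which encode the TET dioxygenases. They were taken by symbol from the table of gene counts, where all 6 were found among 24421 genes and all 6 had enough counts to be among the 15148 genes tested. The 12 libraries hold striatal RNA of C57BL/6J males, a widely used inbred strain. The saline group (6 libraries) was injected with vehicle, and the varenicline group (6 libraries) with 2 mg/kg of varenicline, a medicine for giving up smoking that partly activates nicotinic acetylcholine receptors. Both groups drank 20% ethanol in Drinking-in-the-Dark, a limited-access test with sessions of 2 h, over 3 cycles; all mice got saline in the opening cycle, and their own group's injection in the other 2 cycles, 30 min before a session. Every library thus comes from ethanol-drinking mice, and the contrast is drug against vehicle on that shared background.

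DNA methylation in mammals is a methyl group on cytosine, mostly where a guanine follows (CpG). Dnmt1 copies existing methylation to the new strand after DNA replication, whereas Dnmt3a and Dnmt3b place methyl groups on unmethylated DNA. TET enzymes oxidise methylcytosine to hydroxymethylcytosine and further products, which base excision repair can replace with plain cytosine. Neurons no longer divide but keep high levels of Dnmt3a and of hydroxymethylcytosine, and several of these enzymes have been studied in learning and in responses to drugs of abuse.

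A row of the count table joins all exons of a gene, so transcripts from different start sites are not separated. RefSeq (GRCm38.p6, the assembly behind mm10) lists 3 starts each for Dnmt1 and Dnmt3a and 1 for each of the other 4 genes. Of these 10 starts, 9 lie on the edge of an exon of the count table. The RefSeq start of Tet1 does not: it lies 7310 bases upstream of the outermost counted base, so reads from the RefSeq exon at that start are not in the Tet1 row. The 250 bases upstream of 5 starts are shown because they mark what the Dnmt1, Dnmt3a and Tet1 rows join or leave out, and because their CpG content differs. They are written 5′ to 3′ on the strand of the gene, with each CG in capitals. The regions are chr9:20959889-20960138 and chr9:20952624-20952873 (both minus strand) for the outer and the innermost Dnmt1 start, chr12:3806730-3806979 and chr12:3891494-3891743 (both plus strand) for the outermost and the internal Dnmt3a start, and chr10:62887325-62887574 (minus strand) for Tet1.
Dnmt1 outer start: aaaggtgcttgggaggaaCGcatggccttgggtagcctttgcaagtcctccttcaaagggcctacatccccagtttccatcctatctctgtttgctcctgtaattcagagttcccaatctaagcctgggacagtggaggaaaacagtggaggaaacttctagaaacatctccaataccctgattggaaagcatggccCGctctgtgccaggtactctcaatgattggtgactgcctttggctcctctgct
Dnmt1 innermost start: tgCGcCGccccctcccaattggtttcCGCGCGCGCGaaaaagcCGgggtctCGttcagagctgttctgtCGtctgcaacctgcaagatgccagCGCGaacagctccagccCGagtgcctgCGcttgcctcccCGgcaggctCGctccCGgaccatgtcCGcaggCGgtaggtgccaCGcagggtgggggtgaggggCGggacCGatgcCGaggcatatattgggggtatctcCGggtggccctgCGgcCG
Dnmt3a outermost start: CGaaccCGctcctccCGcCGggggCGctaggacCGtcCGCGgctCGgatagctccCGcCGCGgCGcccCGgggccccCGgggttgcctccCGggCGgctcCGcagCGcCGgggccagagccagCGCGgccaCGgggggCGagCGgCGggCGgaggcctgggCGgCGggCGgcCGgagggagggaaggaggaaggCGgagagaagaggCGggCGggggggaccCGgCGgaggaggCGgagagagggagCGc
Dnmt3a internal start: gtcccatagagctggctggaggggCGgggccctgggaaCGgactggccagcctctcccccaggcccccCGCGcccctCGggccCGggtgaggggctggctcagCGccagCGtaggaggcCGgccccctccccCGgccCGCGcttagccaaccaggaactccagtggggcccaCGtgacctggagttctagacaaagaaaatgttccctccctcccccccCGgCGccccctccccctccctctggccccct
Tet1 start: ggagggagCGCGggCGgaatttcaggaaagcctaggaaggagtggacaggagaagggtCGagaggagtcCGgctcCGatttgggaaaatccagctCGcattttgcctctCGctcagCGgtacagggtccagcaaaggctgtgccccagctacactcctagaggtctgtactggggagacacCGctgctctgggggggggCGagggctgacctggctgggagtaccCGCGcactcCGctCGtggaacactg
The outer Dnmt1 sequence holds 2 CG and the innermost one 26, and the outermost Dnmt3a sequence holds 38 against 15 at the internal start. Background knowledge places an oocyte-specific start of Dnmt1 upstream of the start used in somatic cells, and an internal Dnmt3a start that gives a shorter protein. Which of the listed Dnmt1 starts is the somatic one was not tested. Over windows of 300 bases (250 upstream and 50 downstream), CG was counted in all 32851 RefSeq promoters, of which 94.6% hold at least 1; the word reads the same on both strands, and the median was 7. Tet2 had 57, a count reached by 0.152% of promoters, the outermost Dnmt3a start had 46 (1.65%), Dnmt3b 30 (11.7%), Tet3 22 (23.1%) and Tet1 17 (31.4%). Among the Dnmt1 starts the outer one had 2 (reached by 85.9% of promoters), the middle one 12 (39.6%) and the innermost one 33 (8.56%), and the internal Dnmt3a start had 18 (29.7%). No exon of another gene in GENCODE vM21 overlaps the counted exons of the 6 genes on either strand.

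Dnmt3a was the most abundant of the 6 transcripts per exon length, and Dnmt3b was the scarcest. In RPKM (counts scaled by exon length and library size), the level over all 12 libraries was 18.6 ± 1.20 for Dnmt3a, 9.81 ± 0.948 for Dnmt1, 8.47 ± 0.771 for Tet3, 7.20 ± 0.362 for Tet2, 1.78 ± 0.174 for Tet1 and 0.230 ± 0.0565 for Dnmt3b (SD, n = 12). On this scale Dnmt3a lay above 72.7% of the tested genes and Dnmt3b above 1.99%. The lowest Dnmt3a level, 16.3 RPKM, was above the highest Dnmt1 level, 11.7 RPKM. Dnmt1 exceeded Tet3 in 11 of 12 libraries and Tet3 exceeded Tet2 in 12 of 12, but the ranges of both neighbouring pairs overlapped. Tet2 exceeded Tet1 in every library by between 3.40-fold and 4.54-fold, and Tet1 exceeded Dnmt3b by between 5.54-fold and 12.3-fold. The FPKM values deposited by the authors gave ranges of 17.4 to 22.1 for Dnmt3a and of 0.108 to 0.335 for Dnmt3b.

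**Figure D1:**
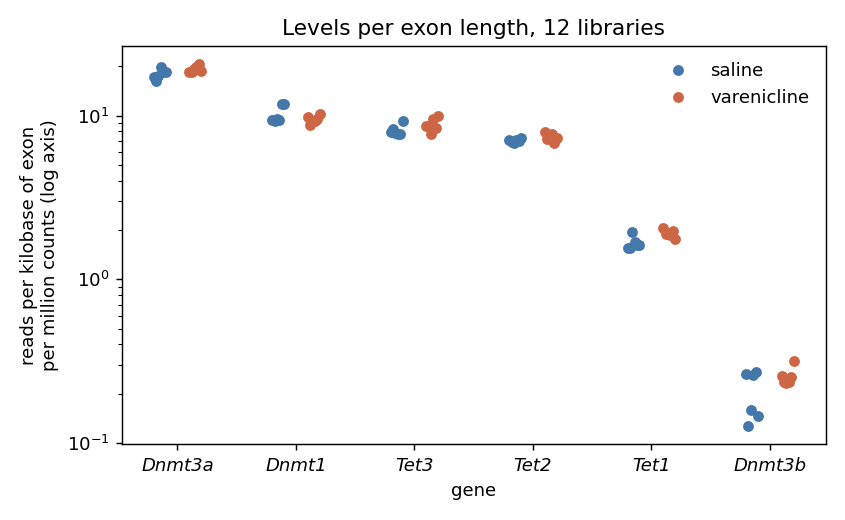
Level of each gene (x axis, ordered by mean) in RPKM (y axis, logarithmic); each point is 1 library, blue for saline and orange for varenicline. Dnmt3a is highest at 16.3 to 20.6, Dnmt1, Tet3 and Tet2 lie close together, and Tet1 and Dnmt3b are lower.

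Cell type markers were averaged in each library. Markers of striatal projection neurons averaged between 8.42 and 9.20 log2 CPM (counts scaled by library size) in all libraries, and those of cortical excitatory neurons between 3.32 and 5.91. Oligodendrocyte markers averaged between 8.42 and 8.80. Such means depend on the genes listed and no other tissue was measured, so their heights do not check the striatal label. For the cortical markers the mean was 5.50 ± 0.321 in saline and 4.38 ± 0.848 in varenicline libraries (SD, n = 6; exact two-sided permutation p = 0.0152, adjusted p = 0.113 over 12 marker lists), and all 14 of its genes had lower means with varenicline, with the smallest p for Nrn1 (log2 fold change -1.30) and Bhlhe22 (-1.29). In varenicline 6 the cortical score was 5.72, inside the saline range of 5.10 to 5.91, whereas the other 5 varenicline libraries lay between 3.32 and 4.71. None of the 12 marker scores passed after adjustment. Astrocyte markers (0.099 log2 CPM higher with varenicline, exact permutation p = 0.0281) had the same adjusted p of 0.113 as the cortical ones. So did the blood cell score, which rests on 1 tested gene, Alas2 (0.39 higher, exact permutation p = 0.0216). Library totals ran from 13340420 to 27917715 counts. In bulk RNA, fewer cells of a type and less RNA per cell cannot be told apart, and values that bear on the cortical score stand beside the results below.

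None of the 6 genes changed between saline and varenicline at an adjusted p of 0.05 in edgeR's quasi-likelihood test, in which 0 of all 15148 genes (0%) passed. Tet1 had the smallest p, with a mean 14.1% higher with varenicline, followed by Dnmt3a and Tet3. Dnmt1 was the single gene of the 6 with a lower mean. At an unadjusted p under 0.05 stood 1 of the 6 genes, Tet1, beside 16.9% of all genes tested (7.26% higher and 9.63% lower), so the share among the 6 is near the background. Of the 6, 5 had higher means with varenicline, where 52.3% of all genes did, and the median log2 fold change was 0.11 against 0.0074 over all genes. For none of the 6 were the groups without overlap, a pattern met by 0.759% of all genes.

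**Figure D2:**
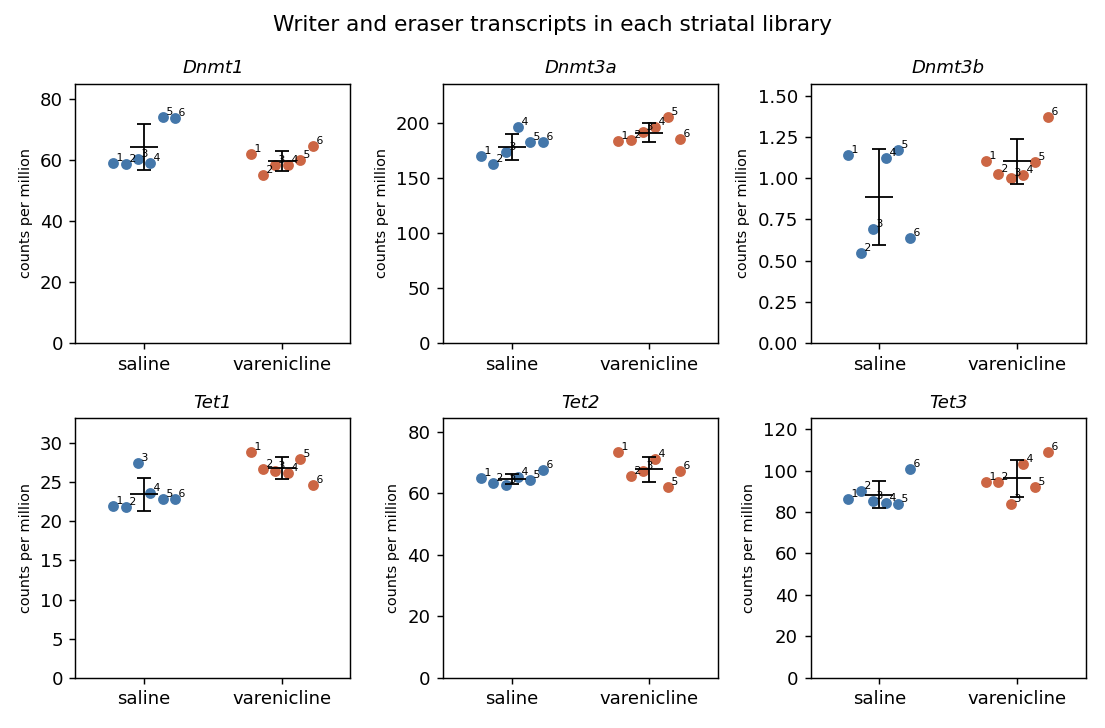
CPM (y axis, from 0) of the 6 genes in each library; numbers beside the points are replicate numbers, and black bars are the mean and SD of the 6 libraries of a group. The groups overlap for every gene: Tet1 in varenicline lies at 24.7 to 28.9, and saline 3 reaches 27.5.

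Tet1 (ENSMUSG00000047146, chromosome 10, 62804570 to 62880014 on mm10, minus strand, 12 exons) encodes a TET enzyme with a CXXC zinc finger that binds CpG-rich DNA. With saline its level had a lowest value of 21.9, a median of 22.9 and a highest value of 27.5 CPM, and with varenicline 24.7, 26.6 and 28.9 CPM. All 6 varenicline libraries lay above the saline mean, and 5 of the 6 saline libraries lay below the lowest varenicline library; saline 3 alone reached into the varenicline range. The means were 23.5 ± 2.11 and 26.8 ± 1.44 CPM (SD, n = 6). For Tet1 the log2 fold change came to 0.19 (SE 0.067, edgeR unadjusted p = 0.0120, adjusted p = 0.185), with a 95% interval from 3.40% to 26.0% higher before adjustment. In the order of p, Tet1 stood at place 985 of 15148.

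Dnmt3a (ENSMUSG00000020661, chromosome 12, 3806980 to 3914443, plus strand, 25 exons) is the main writer in mature neurons. Its level had a lowest value of 163, a median of 178 and a highest value of 196 CPM with saline and 183, 189 and 205 CPM with varenicline. All 6 varenicline libraries lay above the saline mean, and 5 saline libraries lay below the lowest varenicline library, but saline 4 lay inside the varenicline range. Saline 5 and saline 6, at 182.8 and 183.0 CPM, lay only just below varenicline 1, at 183.5 CPM. For Dnmt3a the log2 fold change came to 0.10 (SE 0.051, edgeR adjusted p = 0.317), with a 95% interval from -0.373% to 15.7%.

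Dnmt1 (ENSMUSG00000004099, chromosome 9, 20907206 to 20959888, minus strand, 41 exons) is the maintenance writer. The lowest, median and highest values were 58.5, 59.6 and 73.8 CPM with saline and 55.1, 59.1 and 64.5 CPM with varenicline. The medians thus lay close together, and the lower varenicline mean (59.7 ± 3.28 against 64.0 ± 7.52 CPM, SD, n = 6) came with saline 5 and saline 6, at 73.8 and 73.6 CPM, the only saline libraries above the varenicline range. For Dnmt1 the log2 fold change came to -0.10 (SE 0.071, edgeR adjusted p = 0.485, 95% interval from -16.1% to 3.44%). Without saline 5 the value was -0.057, and without saline 6 it was -0.059.

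Dnmt3b (ENSMUSG00000027478, chromosome 2, 153649449 to 153687730, plus strand, 24 exons), a writer best known from the early embryo, had between 14 and 31 counts per library. At this depth counting alone is imprecise: 14 counts have an exact 95% Poisson interval of 7.65 to 23.5, and 31 counts one of 21.1 to 44.0, which cover counting error only. The saline libraries fell at 1.12 to 1.17 CPM (saline 1, 4 and 5) and at 0.548 to 0.689 CPM (saline 2, 3 and 6), and the varenicline libraries at 1.00 to 1.37 CPM. The log2 fold change of 0.32 (SE 0.24, edgeR adjusted p = 0.514) had a wide 95% interval, from -12.1% to 78.3%. This interval holds the spread between libraries as well as counting error.

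Tet3 (ENSMUSG00000034832, chromosome 6, 83362374 to 83441678, minus strand, 11 exons), the TET gene with the highest level per length here, had a lowest value of 83.9, a median of 85.7 and a highest value of 101 CPM with saline and 83.8, 94.5 and 109 CPM with varenicline. All 6 saline libraries lay inside the varenicline range, and varenicline 3 was the lowest of all 12. For Tet3 the log2 fold change came to 0.12 (SE 0.065, edgeR adjusted p = 0.355, 95% interval from -1.16% to 19.7%). Tet2 (ENSMUSG00000040943, chromosome 3, 133463677 to 133544390, minus strand, 11 exons) encodes the TET enzyme that lacks a CXXC zinc finger of its own. It was the steadiest of the 6 with saline, at 62.7 to 67.3 CPM (median 64.6), and ranged from 62.0 to 73.3 CPM (median 67.1) with varenicline. For Tet2 the log2 fold change came to 0.067 (SE 0.047, edgeR adjusted p = 0.496, 95% interval from -2.33% to 12.3%).

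The call for Tet1 depended on the fit. Without varenicline 6 the Tet1 log2 fold change was 0.22 (edgeR adjusted p = 0.0522); 2 of the 6 genes, Tet1 and Dnmt3a, then stood at an unadjusted p under 0.05, beside 26.1% of all genes, and DESeq2 on the same 11 libraries gave it an adjusted p of 0.0371, where 14.0% of genes passed. DESeq2 on all 12 libraries gave Tet1 an adjusted p of 0.113 and called none of the 5 genes to which it gave an adjusted p (Dnmt3b got none), beside 3.10% of all genes. Limma-voom with sample weights called Tet1 (adjusted p = 0.0461) and Dnmt3a (adjusted p = 0.0488), beside 13.9% of all genes. Once edgeR took the cortical score into the model, the Tet1 log2 fold change was 0.14 (SE 0.093, edgeR unadjusted p = 0.159, adjusted p = 0.992), with 0.0594% of all genes called. With the oligodendrocyte score in its place it was 0.175 (edgeR adjusted p = 0.567), with 1 of 15148 genes called. Over the 27 alternatives the adjusted p of Tet1 ran from 0.0371 to 0.992, and its direction was higher in all of them.

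Dnmt3a and Tet3 shifted in opposite ways with that covariate. With the cortical score, Dnmt3a stood at 0.025 on the log2 scale (SE 0.064, edgeR adjusted p = 0.997). It stood at -0.041 (SE 0.090) when varenicline 6 was left out as well. Without that library the score ranges of the groups do not overlap, so the drug and the score can hardly be told apart there. Over all 12 libraries the mean score was also lower with varenicline, so drug and score are partly confounded there too. The Tet3 log2 fold change was 0.23 (SE 0.079, edgeR unadjusted p = 0.0104, adjusted p = 0.891) with the cortical score. Tet3 was the single gene of the 6 at an unadjusted p under 0.05 in that fit, beside 5.04% of all genes. With the cortical score and varenicline 6 left out as well, Tet3 stood at 0.17 (edgeR adjusted p = 0.559). Without the covariate and without varenicline 6, the library with the highest Tet3, it stood at 0.093 (edgeR adjusted p = 0.351). The libraries with the lowest cortical scores, varenicline 3 at 3.32 and varenicline 5 at 3.64, had Dnmt3a levels of 7.58 and 7.68 log2 CPM. The saline libraries with the highest scores, saline 1 at 5.91 and saline 2 at 5.72, had 7.41 and 7.35. Among the libraries in between, varenicline 4, at a score of 4.31, had 7.62. Saline 3, at 5.51, had 7.44, and saline 5, at 5.61, had 7.51. Saline 4, at a score of 5.10, had 7.62, above varenicline 3. A correlation of Dnmt3a with the score was not tested. Varenicline 1 and 2, at scores of 4.71 and 4.55, had 7.52 and 7.53, and saline 6, at 5.14, had 7.52. Varenicline 6, with a cortical score of 5.72, had 7.54 for Dnmt3a and 4.63 for Tet1, the lowest Tet1 level of its group.

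**Figure D3:**
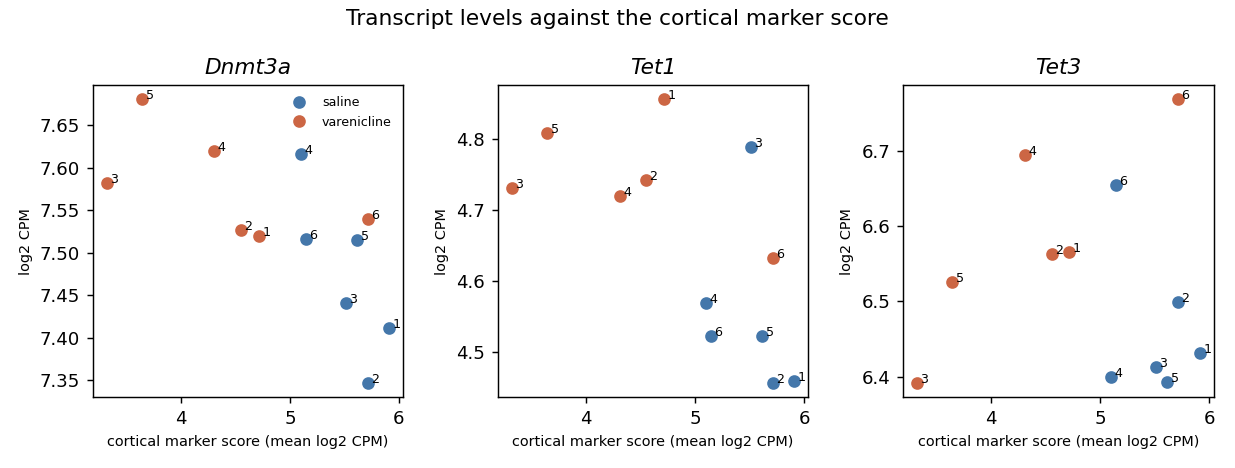
Level in log2 CPM (y axis) of Dnmt3a, Tet1 and Tet3 against the cortical marker score in mean log2 CPM (x axis) for 12 libraries, numbered by replicate, blue for saline and orange for varenicline. Varenicline 6 lies among the saline libraries on the x axis, at 5.72, and has the lowest Tet1 and the highest Tet3 of its group.

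**Figure D4:**
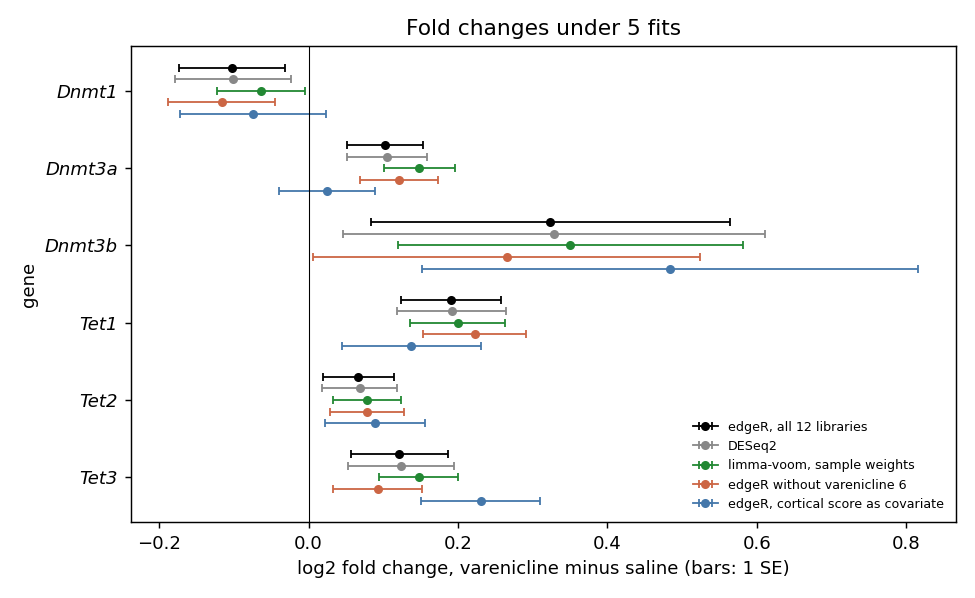
Log2 fold change, varenicline minus saline (x axis; bars are 1 SE), of the 6 genes under 5 fits. The Tet1 value lies between 0.14 and 0.22, the cortical covariate puts Dnmt3a at 0.025 and Tet3 at 0.23.

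The makeup of each family was described from the levels per length. Dnmt3a made up 63.4 ± 2.46% of the summed writer level with saline and 66.4 ± 1.69% with varenicline, and Dnmt1 35.9 ± 2.53% and 32.7 ± 1.60% (SD, n = 6). The Dnmt3b share was highest in varenicline 6, at 1.08%. Among the erasers, Tet3 made up 48.2 ± 1.60% with saline and 48.7 ± 2.46% with varenicline, Tet2 41.9 ± 1.14% and 40.8 ± 1.89%, and Tet1 9.92 ± 1.02% and 10.6 ± 0.888%. The ranges of every share overlapped between the groups. The summed writer level was 28.3 ± 1.96 RPKM with saline and 28.9 ± 0.947 RPKM with varenicline, and the summed eraser level 16.8 ± 0.687 and 18.1 ± 0.979 RPKM.

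Across the 12 libraries the 6 genes did not follow each other closely. Among the 15 pairs the highest Pearson correlation was that of Dnmt3a and Dnmt3b (r = 0.54, permutation p = 0.0713, adjusted p = 0.506; Spearman rho = 0.20, permutation p = 0.544), and it fell to 0.24 without the 2 libraries farthest from the median of Dnmt3a. Tet2 and Tet3 had r = 0.50 (permutation p = 0.101, adjusted p = 0.506; rho = 0.55, permutation p = 0.0708), and 0.43 without the 2 libraries farthest from the Tet2 median. Leaving out the most extreme libraries of a gene narrows its range, which can by itself lower r. With group means removed, r was 0.36 for Dnmt3a and Dnmt3b and 0.34 for Tet2 and Tet3. No pair passed after adjustment.

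The genes with the closest profiles over the 12 libraries were looked up among 11830 genes for each of the 6 (11831 for Dnmt3b). So wide a search gives high r by itself, so these values cannot be set against those of the 15 pairs. The 100th closest gene still had r = 0.83 for Dnmt1, 0.79 for Dnmt3a and 0.77 for Tet1. It had 0.71 for Tet3, 0.65 for Tet2 and 0.57 for Dnmt3b. The genes named are likenesses in libraries that share depth and scaling, given as a description. The closest to Tet1 were Sfpq (r = 0.89), an RNA-binding protein of nuclear paraspeckles, Timp3 (0.88), an inhibitor of matrix metalloproteinases, and Tcf12 (0.87), a basic helix-loop-helix factor. Nearest to Dnmt3a were Smarcd3 (0.93), a subunit of the BAF chromatin remodelling complex, Tcf7 (0.93), a factor of the Wnt pathway, and Chat (0.92), the acetylcholine-making enzyme of cholinergic interneurons. Tet3 was most like Srf (0.92), a factor that drives growth factor-induced genes, Dedd2 (0.92) and the Notch ligand gene Dll4 (0.88). For Tet2 they were Ppp1r15a (0.85), a regulator of protein synthesis under stress, Hbegf (0.85), an EGF family growth factor, and Vav2 (0.83). For Dnmt1 they were Gbf1 (0.96), a Golgi exchange factor, Rnf214 (0.94) and Rrbp1 (0.94), and for the scarce Dnmt3b Zfp831 (0.86), Invs (0.76) and Sec61b (0.75).

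The other genes of the pathway were taken from 7 lists, in which 63 genes were tested. None of the 63 passed in edgeR; at an unadjusted p under 0.05 stood 8 higher and 5 lower, together 20.6% beside 16.9% of all genes. The groups were without overlap for 1 of them, Mat2a, beside 0.759% of all genes. Mat2a makes S-adenosylmethionine, the methyl donor that the writers use. It had a lowest value of 217 and a highest of 255 CPM with saline, and 264 and 323 CPM with varenicline. For Mat2a the log2 fold change came to 0.26 (SE 0.058, edgeR adjusted p = 0.132). DESeq2 called Mat2a (adjusted p = 0.00588) and no other gene of the 7 lists, with 3.10% of all genes called. Without varenicline 6 edgeR called it too (adjusted p = 0.00516, with 10.7% of all genes called). After the cortical covariate was added Mat2a stood at 0.24 (SE 0.081, edgeR unadjusted p = 0.00942, adjusted p = 0.880). In that fit 5.04% of all genes were at an unadjusted p under 0.05. In the methyl donor list 6 of 9 genes were higher, with a median of 0.096; Ahcyl1 had 0.096 and the methionine synthase gene Mtr 0.16, and 0.050 and 0.12 with the cortical covariate.

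Among partners of the writers 4 of 6 were higher and none reached an unadjusted p under 0.05. Uhrf1, which brings Dnmt1 to newly copied DNA, had 0.40 (SE 0.24), its close relative Uhrf2 0.096, the replication clamp gene Pcna 0.11 and Usp7, a deubiquitinase, -0.047. After the cortical covariate was added Uhrf1 stood at 0.0022, Uhrf2 at 0.053, Pcna at 0.068 and Usp7 at -0.029, and without varenicline 6 Uhrf1 stood at 0.54 (edgeR adjusted p = 0.120). Among partners of TET enzymes and their cofactor supply, 3 of 6 were higher, and at an unadjusted p under 0.05 stood 2 in each direction (66.7% of the list, beside 16.9% of all genes). Cxxc5, a CXXC protein, had -0.32 (SE 0.11, edgeR adjusted p = 0.183), Idh2, a mitochondrial source of the TET cofactor 2-oxoglutarate, 0.18, Idh3a -0.12 and Ogt, the O-GlcNAc transferase that binds TET proteins, 0.13. Adding the cortical covariate put Cxxc5 at 0.023, Idh2 at 0.11, Idh3a at -0.020 and Ogt at 0.054, with 0 of the 6 then at an unadjusted p under 0.05. Leaving out varenicline 6, edgeR called Cxxc5 lower (adjusted p = 0.0165) and Idh2 higher (adjusted p = 0.0410), in a fit that called 10.7% of all genes.

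Repair genes that act after oxidation were higher in 5 of 13 cases, with 2 lower at an unadjusted p under 0.05 (15.4%, near the 16.9% of all genes): Polb, the base excision polymerase, at -0.15 (SE 0.048, edgeR adjusted p = 0.155) and the scarce glycosylase gene Neil2 at -0.84 (SE 0.33). Lig3, a DNA ligase, had 0.11 and Gadd45g 0.23. Adding the cortical covariate put Neil2 at -0.024, Polb at -0.14, Lig3 at 0.0097 and Gadd45g at 0.35. Of 8 genes for methyl-CpG binding proteins 4 were higher, and 1 was lower at an unadjusted p under 0.05 (12.5%, below the 16.9% of all genes), Mbd5 at -0.10 (SE 0.046, edgeR adjusted p = 0.281). Zbtb4 had -0.075, Zbtb33 0.10 and Mbd1 0.063. The Zbtb4 value turned to 0.077 with the cortical covariate and was -0.12 without varenicline 6 (edgeR adjusted p = 0.151); Mbd5, Zbtb33 and Mbd1 had -0.11, 0.095 and 0.065 with the covariate.

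**Figure D5:**
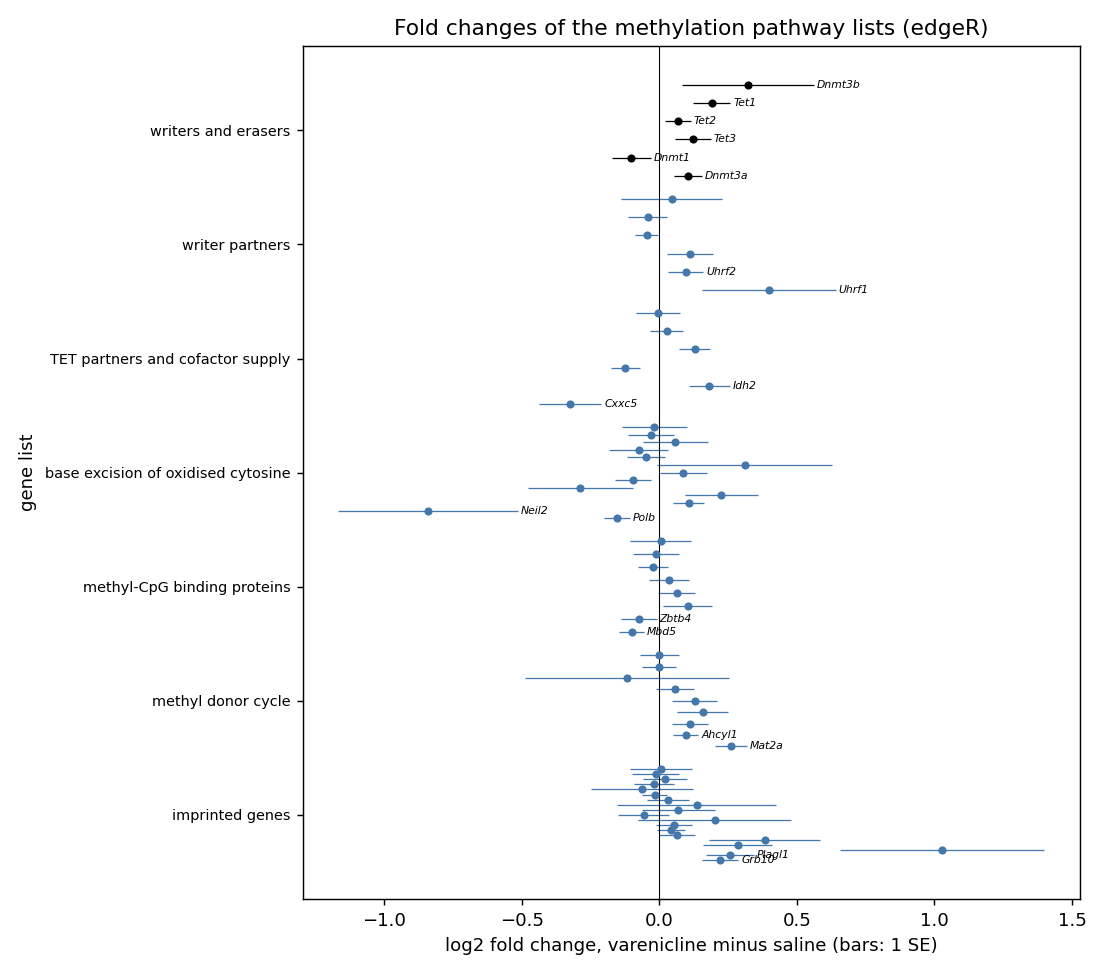
Log2 fold change, varenicline minus saline (x axis; bars are 1 SE, edgeR), of the 6 genes (black) and of 6 pathway lists (blue), with the 2 smallest p of each blue list named. No gene passed after adjustment, and Mat2a at 0.26 had the smallest p in the plot.

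Imprinted genes are expressed from the copy of 1 parent, and DNA methylation laid down in the germ line marks which. Of 20 listed, 19 were tested, and 14 were higher with varenicline (73.7%, beside 52.3% of all genes), with a median log2 fold change of 0.053 against 0.0074 over all genes; an unadjusted p under 0.05 was met by 4 higher and 0 lower genes (21.1%, beside 16.9% of all genes), and none passed. Grb10, an adaptor of insulin signalling, had 0.22 (SE 0.067, edgeR adjusted p = 0.147), the zinc finger gene Plagl1 0.26 (SE 0.086), Peg10 0.28 and Magel2, a ubiquitin ligase regulator, 1.03 (SE 0.37). Leaving out varenicline 6, edgeR called Grb10 (adjusted p = 0.0389), in a fit that called 10.7% of all genes. Adding the cortical covariate put Grb10 at 0.12, Peg10 at 0.17, Magel2 at 0.62 and Plagl1 at 0.34. Magel2 was at 1.65 to 2.93 CPM with saline, and with varenicline at 7.60 CPM in varenicline 1 and 9.25 CPM in varenicline 3 but at 1.89 to 3.48 CPM in the other 4. Peg10 was at 47.2 and 51.1 CPM in varenicline 1 and 3, at 29.3 to 36.2 CPM in the other 4 and at 28.3 to 32.5 CPM with saline. Grb10 was at 56.6 and 63.3 CPM in those libraries, at 48.8 to 55.9 CPM in the other 4 and at 43.4 to 49.1 CPM with saline. Varenicline 1 and 3 are also the libraries with the highest score of septal and pallidal markers, 3.28 and 3.44 log2 CPM, where the other 10 lay between 1.87 and 2.64; the part of those markers in the Magel2, Peg10 and Grb10 values was not tested.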

How the data were processed

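RNA was sequenced from bilateral striatum, as single reads of 150 nt per the labels' protocols. The tools named in the submitters' processing notes are TopHat2 and featureCounts, Trimmomatic and FastQC, and Cuffdiff, Cuffnorm and DESeq2, with build mm10, and their versions, annotation and strand setting were not given in the sources used here. Deposited counts are whole numbers, not normalized, and were the basis of all tests. The authors also deposited FPKM values and, by its file name from Cuffnorm, a signal of scaled counts; both served as alternatives. Per the file headers, exon length came with the counts and gave RPKM. The 27 symbols a spreadsheet had turned into dates were restored by identifier.

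Genes were kept by filterByExpr, scaled by TMM and tested with edgeR 4.0.16 (quasi-likelihood F test, Benjamini-Hochberg adjustment over 15148 genes, threshold 0.05) in R 4.3.3, 6 saline against 6 varenicline libraries. Fold changes are log2, varenicline minus saline. Alternatives were other size factors, filters, DESeq2 1.42.0, limma 3.58.1 (voom with sample weights, or log2 of FPKM plus 1 or 0.1, or of Cuffnorm values plus 1), marker scores as covariates and each library left out. Marker scores are mean log2 CPM (prior count 2), compared by exact permutation over 924 assignments. At the depths here 3 counts correspond to 0.107 to 0.225 CPM, covering counting error only. Groups follow the treatment label; replicate numbers follow accession order and pair nothing. No source used here says whether a library is 1 mouse, so p-values cover only the spread between these samples, which may be technical.

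All 6 genes are named, with up to 4 genes of smallest p per list (an item is not reported here), and the 3 genes with the highest Pearson r to each (mean log2 CPM of at least 2, no predicted genes). Members and lists were chosen with earlier results of these data known. Germline genes of the 7 lists are described after the report. Promoter sequences are from RefSeq. Figures were drawn with matplotlib 3.10.9.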

Additional observations from a re-analysis of the deposited data

Results flagged for a closer look

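A library stood far from the rest of its group in 4 of 38 sets of 6 values; at 1 in 20, chance would give 1.9. Tet1 in saline 3 was at 4.79 log2 CPM, where the other saline libraries lay between 4.46 and 4.57; without saline 3 the Tet1 log2 fold change was 0.25 (edgeR adjusted p = 0.164). Dnmt3b in varenicline 6 was at 0.55 log2 CPM, or 24 counts, where the others of its group lay between 0.13 and 0.26. The oligodendrocyte marker score was 8.73 log2 CPM in saline 6 (others 8.47 to 8.54) and 8.42 in varenicline 6 (others 8.68 to 8.80).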

How the results depend on the processing

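Over the 27 alternatives Dnmt1 stayed lower and Dnmt3b, Tet1, Tet2 and Tet3 stayed higher with varenicline in all, and Dnmt3a stayed higher in 26. Dnmt3a was at -0.041 (SE 0.090) when the cortical covariate was added and varenicline 6 left out. In that fit the drug and the score can hardly be told apart. The 6 genes gave 0 calls in edgeR, and 2 with limma-voom with sample weights and 1 with DESeq2 when varenicline 6 was left out. Over all genes, edgeR called 0, DESeq2 387, limma-voom 2099, DESeq2 without varenicline 6 2158, edgeR with the cortical score 9 and with the oligodendrocyte score 1. At an unadjusted p under 0.05 edgeR had 2558 genes. Leaving out each library in turn gave 0 to 1628 called genes, the highest without varenicline 6 and 4 without varenicline 2, and 0 to 0 calls among the 6 genes. In those fits the log2 fold change of Tet1 ran from 0.17 to 0.25 (edgeR adjusted p from 0.0522 to 0.330), that of Dnmt3a from 0.078 to 0.14, of Tet3 from 0.093 to 0.16, of Tet2 from 0.043 to 0.097, of Dnmt3b from 0.21 to 0.43 and of Dnmt1 from -0.13 to -0.057. The cortical score difference ran from -1.39 to -0.91 log2 CPM (exact permutation adjusted p from 0.0260, without varenicline 6, to 0.216), that of oligodendrocyte precursors from -0.024 to 0.065 and of microglia from -0.014 to 0.063, and the difference in library totals from -5595728 to -2490097 counts (exact permutation p from 0.0390, without saline 1, to 0.353). The causes of these shifts were not tested. Dnmt3b rests on 14 to 31 counts per library, where counting error is large. No paired analysis was possible because the labels give every library the same replicate number.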

Other observations

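Germline genes that DNA methylation keeps silent in the body were listed as a readout. Of 14 listed, 12 had too few counts to test, 4 of them with 0 counts in all 12 libraries and the others with totals of 1 to 57. The remaining 2 were measurable in striatum. Dazl, an RNA-binding protein of germ cells, was at 4.99 to 8.63 CPM with saline and 6.16 to 11.1 CPM with varenicline (log2 fold change 0.39, SE 0.16, edgeR adjusted p = 0.232). Dazl was called by edgeR when varenicline 6 was left out (adjusted p = 0.0452), in a fit that called 10.7% of all genes. It stood at 0.11 (edgeR adjusted p = 0.997) once the cortical covariate was added. Ddx4, a helicase of germ cells, was at 1.86 to 4.31 CPM with saline and 1.91 to 3.88 CPM with varenicline, with a log2 fold change of -0.0055 (edgeR adjusted p = 0.993).

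Tdg, the glycosylase that removes the oxidised bases TET enzymes make, had 12 counts over all 12 libraries and at most 3 in any, and was not tested. In the FPKM values deposited by the authors it was nevertheless at 1.80 to 3.11 with saline and 1.92 to 2.86 with varenicline, above Tet1 in all libraries but varenicline 5. RefSeq lists Tdg-ps2 and Tdg-ps, 2 copies of Tdg, on chromosomes 10 and 15. Their part in the gap between counts and FPKM was not tested. The Tdg counts say little about the level of that gene.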
